A study of Homo sapiens with 6 samples.

Results

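Integrins are the receptors through which fibroblasts hold on to the surrounding matrix, and laminins are heterotrimeric glycoproteins that form the backbone of basement membranes. The set described here holds 34 of the 57819 genes in the deposited table, taken by gene name: 12 integrin alpha chains, 6 integrin beta chains, 9 laminin chains, 2 nidogens and 5 focal adhesion adaptors. An integrin pairs 1 alpha with 1 beta chain, and the pair sets which ligand is bound. Collagens are bound through alpha chains that carry an inserted domain, laminins through another group, and fibronectin, vitronectin and latent TGF-beta through receptors that read the Arg-Gly-Asp (RGD) motif. Inside the cell, talin and kindlin bind the beta tails and link them to actin and to kinase signalling. Each laminin trimer joins an alpha, a beta and a gamma chain, and nidogens tie laminin to the collagen IV network. In senescent fibroblasts, integrins and matrix genes belong to the altered surface and secretome.

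The libraries came from IMR90 ER:Ras cells, which are human lung fibroblasts. In them 4-hydroxytamoxifen (4OHT) turns on an oncogenic Ras made as a fusion with part of the estrogen receptor. All 6 libraries were from cells labelled as given 4OHT, at 200 nM for 3 days, and vehicle-treated cells were not analysed here. Both groups held 3 libraries: cells with a scrambled siRNA (siSCR, controls) and cells with an siRNA to sin-lncRNA, a long noncoding RNA (knockdowns). The comparison addressed what loss of this lncRNA changes in cells given 4OHT. Whether these cells were senescent was not tested here. All knockdown columns carry the same siRNA mark (si1 in the labels), so effects of the siRNA used and of the loss of the lncRNA cannot be told apart. Whether replicates were separate cultures is not stated, and p-values measure the spread between these libraries, which may be technical.

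Polyadenylated RNA was counted in genes at a depth of 30271192 to 50913672 reads in controls and 22117324 to 27882280 in knockdowns, so all knockdown libraries were shallower and depth and group cannot be told apart. Levels are given in RPM (the reads-per-million scale), set by the effective library size. The targeted lncRNA was read at 4.17 ± 0.52 RPM in controls and 0.556 ± 0.076 in knockdowns (SD, n = 3), and the log2 fold change was -2.86 (limma adjusted p = 7.9e-07). Fibroblast markers were abundant in both groups, but their summed level was 14193 to 15228 RPM in controls and 9380.2 to 9693 in knockdowns, with COL1A1 and COL1A2 holding most of it. Of these 10 markers, 4 were higher and 5 lower in knockdowns. Leukocyte markers summed to 0.233 to 0.558 RPM in controls and 0.403 to 0.748 in knockdowns. The 6 markers of contractile smooth muscle summed to 252 to 269.5 RPM in controls and 212 to 237 in knockdowns, with TAGLN and ACTA2 holding most of it. Of the 5 tested, 3 were lower (CNN1 at -0.56, TAGLN at -0.26 and ACTA2 at -0.13 on the log2 scale). MYH11 (0.05) and MYOCD (0.14) were not called, and every knockdown library of MYOCD was above the controls. Epithelial markers summed to 27.97 to 31.4 RPM in controls and 28.6 to 31.4 in knockdowns, with KRT5 at 0 in every library. Of the 4 tested, KRT19 (-1.31 on the log2 scale) and KRT8 (-0.38) were lower, KRT18 (0.35) was higher and EPCAM (-0.13) was not called. The 5 endothelial markers analysed summed to 7.06 to 7.96 RPM in controls and 7.98 to 8.84 in knockdowns. CDH5 was at 0 in every control and at 1 read in 1 knockdown library. Of the 2 tested, VWF (0.42) was higher and TEK (0.06) was not called. The part of other cell types in the results below was not tested. Fewer cells of a type and less RNA per cell cannot be told apart in such bulk libraries.

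Of the 34 genes, 32 were tested, each with 10 or more normalized reads on average; ITGB4 and ITGB7 had fewer. Among the 32, 17 were higher and 3 lower in knockdowns (limma on log2 values, Benjamini-Hochberg adjusted p under 0.05 over all 19048 genes tested). In all genes tested the rule called 41.0%, with 17.5% higher and 23.5% lower, and among protein-coding genes it called 48.6%. The median log2 fold change of the 32 genes was 0.18, beside -0.04 for all genes tested. The 17 rises were made up of 5 RGD receptor chains, 5 laminin chains, both tested chains of the alpha4 and alpha9 group, 1 collagen receptor, 1 laminin receptor, NID2, PTK2 and FERMT2. ITGA7, ITGA8 and PXN were the 3 that fell. Knockdown libraries lay wholly above the controls for 19 genes and wholly below for 5; over all genes tested this held for 22.6% and 28.5%, or 51.1% together. A log2 fold change of 0.5 or more in size was reached by 12 of the 20 called genes, and 13.9% of all genes tested were called with a change that large. With the trend of values on GC content and transcript length removed from each library, 13 of the 32 were higher and 6 lower.

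**Figure D1:**
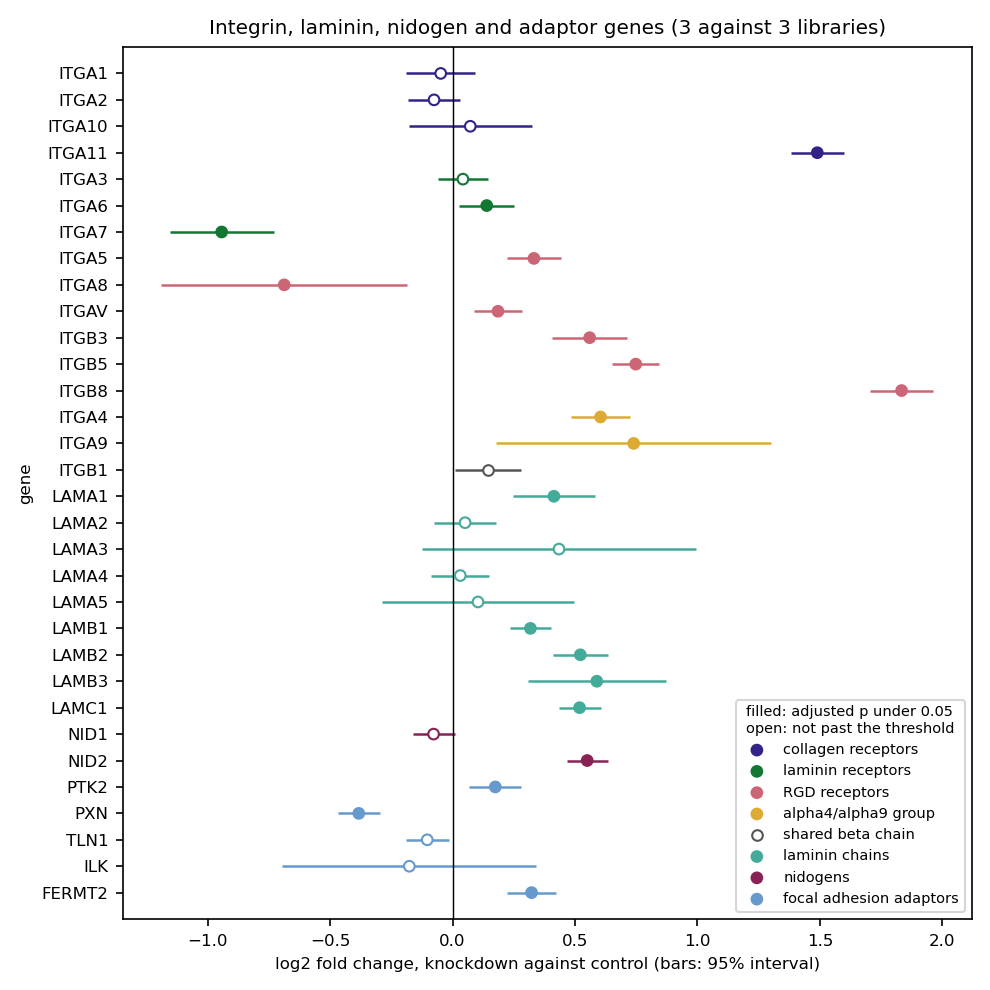
Log2 fold change of each of the 32 tested genes (horizontal axis, knockdown against control, with its 95% interval) by gene, coloured by ligand class or role; filled points passed an adjusted p of 0.05. ITGB8 and ITGA11 lie farthest to the right, at 1.83 and 1.49, and ITGA7 farthest to the left, at -0.94.

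All 6 RGD receptor chains were called, 5 upward and 1 downward, beside 41.0% of all genes tested and 48.6% of protein-coding genes. The calls of ITGAV and ITGA8 did not hold in every other fit. ITGB8, the beta chain of the receptor alphaV-beta8 that binds latent TGF-beta, had the largest change of the 32 tested genes. ITGB8 (ENSG00000105855.5, chromosome 7, 20370325 to 20455377 in the table's coordinates, hg19 per the submitters' processing notes) was read at 27.1, 24.3 and 23.6 RPM in controls and 88.3, 88.9 and 89.7 in knockdowns. All 3 knockdown libraries were above all 3 controls, and the 3 knockdown values were almost level. It rose from 25.01 ± 1.9 to 89 ± 0.70 RPM (SD, n = 3), and the log2 fold change was 1.83 ± 0.06 (SE; limma, adjusted p = 1.8e-08).

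The 250 bases before the annotated start are shown for ITGB8 and for 3 other genes that rose (ITGA11, LAMC1 and NID2), so that the start regions of genes that moved together can be set side by side. They were taken from RefSeq (GRCh38.p14), at chr7:20330650-20330899 on the plus strand for ITGB8, chr15:68432164-68432413 on the minus strand for ITGA11, chr1:183023170-183023419 on the plus strand for LAMC1 and chr14:52069060-52069309 on the minus strand for NID2. Capitals mark matches, on either strand, to a GC box (GGGCGG), the CCAAT box (the same letters as its name), an AP-1 element (TGANTCA), a TEAD element (GGAATG) or a TATA box (TATAAA).
ITGB8: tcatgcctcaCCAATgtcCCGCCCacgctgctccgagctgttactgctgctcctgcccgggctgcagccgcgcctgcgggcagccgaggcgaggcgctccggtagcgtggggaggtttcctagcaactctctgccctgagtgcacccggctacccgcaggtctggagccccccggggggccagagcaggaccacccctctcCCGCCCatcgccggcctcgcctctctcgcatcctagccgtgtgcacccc
ITGA11: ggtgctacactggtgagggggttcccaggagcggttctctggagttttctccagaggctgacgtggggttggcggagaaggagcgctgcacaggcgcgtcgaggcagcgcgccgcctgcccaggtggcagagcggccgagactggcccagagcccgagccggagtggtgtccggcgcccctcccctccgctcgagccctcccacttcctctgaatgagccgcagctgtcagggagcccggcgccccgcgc
LAMC1: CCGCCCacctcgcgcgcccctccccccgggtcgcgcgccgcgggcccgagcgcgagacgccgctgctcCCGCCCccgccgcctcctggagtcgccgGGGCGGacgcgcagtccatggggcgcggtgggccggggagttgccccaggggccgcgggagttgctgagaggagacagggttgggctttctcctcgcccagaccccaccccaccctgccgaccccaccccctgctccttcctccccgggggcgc
NID2: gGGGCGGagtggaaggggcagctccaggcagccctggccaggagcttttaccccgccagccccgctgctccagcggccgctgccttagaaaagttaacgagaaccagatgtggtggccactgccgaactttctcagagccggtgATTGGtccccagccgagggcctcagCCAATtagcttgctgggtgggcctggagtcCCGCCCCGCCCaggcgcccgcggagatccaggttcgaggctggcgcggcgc
The ITGB8 window held 2 GC boxes and 1 CCAAT box, the LAMC1 window 3 GC boxes, and the NID2 window 3 GC boxes, 2 of which overlap, and 2 CCAAT boxes. In the ITGA11 window these letters were not found (0 matches). Start windows were matched for 27 of the 34 genes by symbol, and 19 of the 27 held a GC box in at least 1 window, beside 46.2% of the 27305 genes in that source. For the AP-1 element the numbers were 2 of 27 (LAMA3 and LAMB3) and 8.06%, and for the TEAD element 5 of 27 and 14.3%. A CCAAT box was held by 6 of 27 and 37%, and a TATA box by 2 of 27 and 13.05%. The median GC content of the members' windows was 68%, beside 58% over all windows. These matches describe the letters only, and which starts the cells used was not examined.

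ITGB5 encodes the beta chain of the vitronectin receptor alphaV-beta5. ITGB5 (ENSG00000082781.7, chromosome 3, 124480795 to 124620265) was read at 550.0, 536 and 542 RPM in controls and 866, 949 and 922 in knockdowns. The groups were far apart, and the controls were close to each other. Its rise was from 543 ± 6.8 to 912 ± 42.6 RPM (SD, n = 3), and the log2 fold change was 0.75 ± 0.04 (SE; limma, adjusted p = 5.9e-07). ITGB3, the beta chain of alphaV-beta3 and of the platelet fibrinogen receptor (ENSG00000259207.3, chromosome 17, 45331212 to 45421658), was read at 27.8, 33.03 and 32.7 RPM in controls and 44.4, 46.4 and 46.6 in knockdowns. Control replicate 1 was the lowest of the 6, and the groups did not overlap. The log2 fold change of ITGB3 was 0.56 ± 0.07 (SE; limma, adjusted p = 1.1e-04). ITGB3 shares 23.2% of its span with EFCAB13, a gene on the same strand read at 1.49 RPM on average. Another row for the same locus, listed under its identifier ENSG00000259753.1, covers 99.9% of the ITGB3 span on the same strand and held 0 reads in every library.

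ITGAV, the alpha chain that pairs with all 3 of these beta chains, was read at 179, 172 and 169 RPM in controls and 201, 202 and 188 in knockdowns. It moved far less than its partners, with 0.19 ± 0.04 (SE; limma, adjusted p = 0.007) on the log2 scale. Without the GC and length trend ITGAV was at 0.05 (limma, adjusted p = 0.413). ITGA5, which pairs with beta1 as the main fibronectin receptor, was read at 843, 954 and 902 RPM in controls and 1098, 1126 and 1169 in knockdowns. Every knockdown library was above every control, and the log2 fold change was 0.33 ± 0.05 (SE; limma, adjusted p = 4.0e-04). ITGA8, a partner of beta1 that binds nephronectin, was read at a low level, with 34 to 88 reads in each control library and 21 to 29 in each knockdown library. Its levels (ENSG00000077943.7, chromosome 10, 15555948 to 15762124) were 2.09, 1.13 and 1.75 RPM in controls and 0.941, 0.982 and 1.03 in knockdowns. The groups did not overlap, though control replicate 2 was close to the knockdowns. They gave a log2 fold change of -0.69 ± 0.23 (SE; limma, adjusted p = 0.032). It lost the call with any library other than control replicate 2 left out, and without control replicate 1 ITGA8 was at -0.50 (limma, adjusted p = 0.124). Without control replicate 2 it was at -0.93 (limma, adjusted p = 0.0034).

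Among the collagen receptors, ITGA11 alone passed the threshold of the 4 chains tested. ITGA11 encodes the alpha chain of alpha11-beta1, a receptor of fibroblasts for fibrillar collagen. ITGA11 (ENSG00000137809.12, chromosome 15, 68594050 to 68724501) was read at 69.3, 69.5 and 65.03 RPM in controls and 183, 199 and 190.4 in knockdowns. The lowest knockdown library was over 100 RPM above the highest control. It rose from 67.96 ± 2.5 to 191 ± 8.4 RPM (SD, n = 3), and the log2 fold change was 1.49 ± 0.05 (SE; limma, adjusted p = 1.8e-08).

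ITGA2, the collagen-binding partner of beta1 known from platelets and epithelia, was read far above ITGA11, at 1328, 1421 and 1347 RPM in controls and 1373, 1252 and 1264 in knockdowns. The groups overlapped, and its log2 fold change was -0.08 ± 0.05 (SE; limma, adjusted p = 0.238) with a 95% interval of -0.18 to 0.03. Without the GC and length trend ITGA2 was called, at -0.20 (limma, adjusted p = 4.5e-04). ITGA1, the alpha chain of a receptor with a preference for collagen IV, was read at 79.5, 70.7 and 73.5 RPM in controls and 75.6, 74.7 and 66.1 in knockdowns, and the groups overlapped. Its log2 fold change was -0.05 ± 0.06 (SE; limma, adjusted p = 0.582), with an interval of -0.19 to 0.09; without the GC and length trend it was called, at -0.23 (limma, adjusted p = 0.0098). ITGA1 shares 9.402% of its span with PELO, a gene on the same strand read at 86.5 RPM. ITGA10, a collagen II receptor chain of cartilage, ran from 7.05 to 9.75 RPM, both ends of the range being controls, with an interval of -0.18 to 0.32 on the log2 fold change.

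The laminin receptor chains did not move together. ITGA7, the alpha chain of alpha7-beta1 and the laminin receptor of muscle, fell. ITGA7 (ENSG00000135424.11, chromosome 12, 56078352 to 56109827) was read at 34.8, 28.3 and 29.5 RPM in controls and 14.3, 16.1 and 17.8 in knockdowns. Every knockdown library was well under the lowest control. The summed smooth muscle markers, mostly TAGLN and ACTA2, were also lower in every knockdown library, while MYH11 and MYOCD were not called. The part of these markers in the ITGA7 and vinculin values was not tested. The fall of ITGA7 was from 30.9 ± 3.5 to 16.1 ± 1.8 RPM (SD, n = 3), and the log2 fold change was -0.94 ± 0.10 (SE; limma, adjusted p = 2.6e-05).

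ITGA6, the laminin-binding partner of beta1 and beta4, was read at 204, 213 and 209 RPM in controls and 241, 213 and 236 in knockdowns. Knockdown replicate 2 and control replicate 2 were almost level. The log2 fold change was 0.14 ± 0.05 (SE; limma, adjusted p = 0.049), and 8 of 19 other fits did not call it, including 0.10 (limma, adjusted p = 0.152) without knockdown replicate 1. Leaving out control replicate 1, control replicate 3 or knockdown replicate 3 also ended the call, with values of 0.12, 0.14 and 0.12. Without the GC and length trend ITGA6 was at 0.05 (limma, adjusted p = 0.305). ITGA3, the alpha chain that binds laminin-332 and laminin-511, was read at 239, 258 and 249 RPM in controls and 244, 262 and 261 in knockdowns, and the groups overlapped. The 95% interval on its log2 fold change was -0.06 to 0.14. ITGB4, the hemidesmosome chain of epithelia, was listed with 3 to 13 reads in each control library and 4 to 10 in each knockdown library and was not tested. It shares 17.1% of its span with GALK1 on the opposite strand, read at 13.7 RPM, so its listed value may not be the gene's level. A count of 0 would allow up to 3 reads, or 0.0596 to 0.134 RPM depending on the library, for counting error only.

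In the remaining alpha chain group, ITGA4, which binds the alternatively spliced region of fibronectin and VCAM1, rose. ITGA4 (ENSG00000115232.9, chromosome 2, 182321929 to 182400914) was read at 31.1, 29.97 and 32.2 RPM in controls and 46.8, 45.6 and 49.2 in knockdowns. The 2 groups were more than 13 RPM apart, and the log2 fold change was 0.60 ± 0.05 (SE; limma, adjusted p = 1.1e-05). ITGA9, a receptor chain for tenascin and osteopontin, rested on 11 to 30 reads in each control library and 17 to 22 in each knockdown library. ITGA9 shares 21.0% of its span with AC093415.2 on the opposite strand, read at 0.818 RPM on average. Its listed value may therefore not be the gene's level. Levels of ITGA9 (ENSG00000144668.7, chromosome 3, 37493606 to 37865005) were 0.4699, 0.366 and 0.596 RPM in controls and 0.852, 0.726 and 0.784 in knockdowns. The groups did not overlap. The log2 fold change was 0.74 ± 0.25 (SE; limma, adjusted p = 0.038). This call was lost in 8 of 18 other fits, among them all those with a library left out except control replicate 3; without control replicate 2 it was 0.57 (limma, adjusted p = 0.128). ITGB7, the beta chain of lymphocyte homing receptors, was listed with 4 to 12 reads in each control library and 7 in each knockdown library and was not tested.

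ITGB1, the beta chain shared by most of these receptors, was the most abundant of the 34 genes at 2283, 2716 and 2640.0 RPM in controls and 2831, 2776 and 2822 in knockdowns. Every knockdown library was above every control, but control replicate 1 was well under the other controls. Its log2 fold change was 0.15 ± 0.06 (SE; limma, adjusted p = 0.078), with an interval of 0.01 to 0.28. ITGB1 passed the threshold in 5 of 19 other fits. These included library totals, at 0.17 (limma, adjusted p = 0.043), and trimmed-mean factors, at 0.16 (limma, adjusted p = 0.048). Without control replicate 2 it also passed, at 0.19 (limma, adjusted p = 0.019). Over the 19 fits its value ran from 0.05 to 0.19, and the highest limma adjusted p was 0.428.

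**Figure D2:**
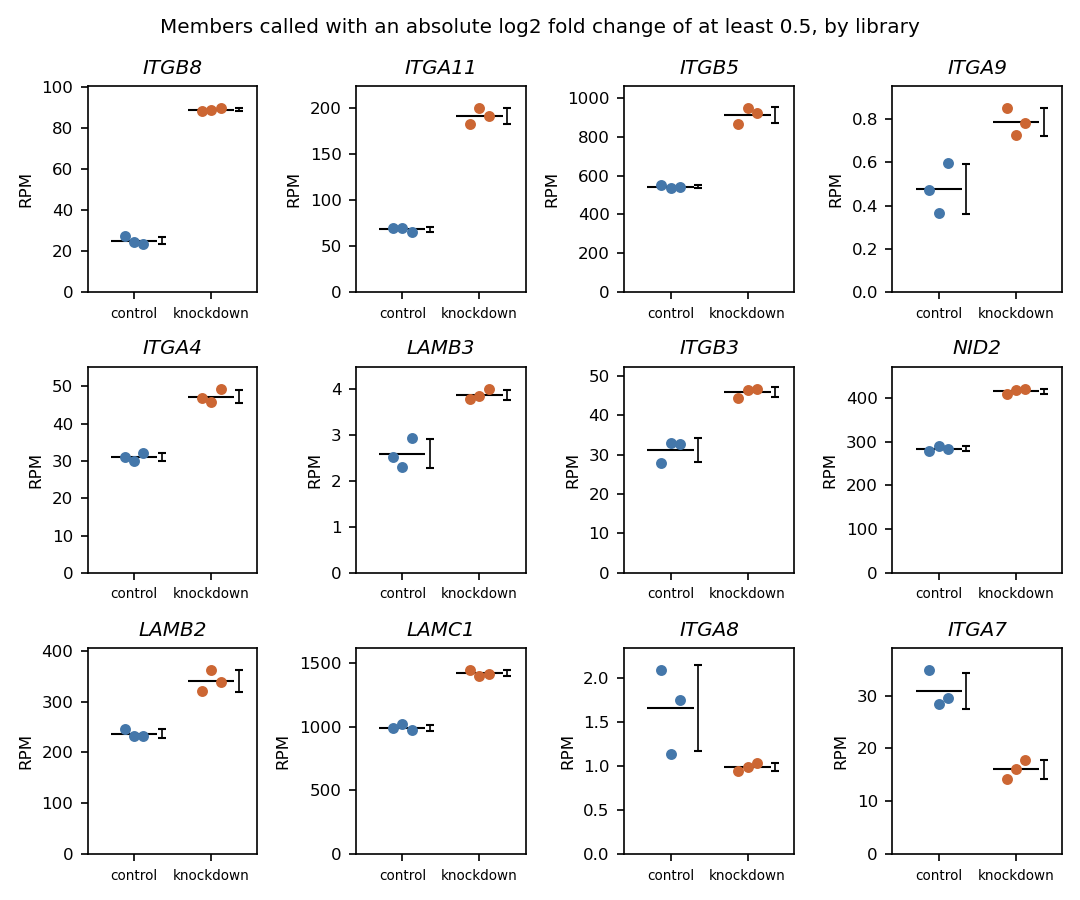
RPM (vertical axis, from 0) in each of the 3 control and 3 knockdown libraries for the 12 genes called with a log2 fold change of 0.5 or more in size; lines are means and bars the SD. The groups do not overlap in any panel, and ITGA8 and ITGA9 lie near or under 2 RPM.

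Of the laminin chains in the set, all 3 beta chains and the gamma chain were called higher, and of the 5 alpha chains LAMA1 was. The intervals of LAMA3 (-0.13 to 0.99) and LAMA5 (-0.29 to 0.50) were too wide to place these alpha chains apart from the others. LAMB4, a beta chain outside the set, was not called, at -0.69. LAMC1, the gamma chain of most laminins, led in abundance. LAMC1 (ENSG00000135862.5, chromosome 1, 182992595 to 183114727) was read at 988, 1019 and 972 RPM in controls and 1448, 1403 and 1418 in knockdowns. Every knockdown library was far above every control. Its rise, from 993 ± 23.8 to 1423 ± 22.8 RPM (SD, n = 3), gave a log2 fold change of 0.52 ± 0.04 (SE; limma, adjusted p = 3.1e-06).

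LAMB1, the beta chain of the laminins made by most mesenchymal cells, was read at 723, 722 and 700.2 RPM in controls and 884, 889 and 901 in knockdowns. Groups were separate and narrow, and the log2 fold change was 0.32 ± 0.04 (SE; limma, adjusted p = 7.0e-05). LAMB1 shares 9.98% of its span with DLD on the opposite strand, read at 95.7 RPM. LAMB2, the beta chain found at synapses, in kidney and in vessel walls (ENSG00000172037.9, chromosome 3, 49158547 to 49170551), was read at 247, 232 and 232 RPM in controls and 320.1, 362 and 338 in knockdowns. The groups did not overlap, and the knockdowns were spread more widely than the controls. It gave a log2 fold change of 0.52 ± 0.05 (SE; limma, adjusted p = 2.0e-05). LAMB3, part of the epithelial laminin-332 (ENSG00000196878.8, chromosome 1, 209788215 to 209825811), was read much lower, at 2.53, 2.298 and 2.92 RPM in controls and 3.77, 3.84 and 3.99 in knockdowns. All knockdown values were above the highest control, and the log2 fold change of LAMB3 was 0.59 ± 0.13 (SE; limma, adjusted p = 0.0037).

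LAMA1, the alpha chain of the early embryonic laminin, was read at 27.1, 33.7 and 29.1 RPM in controls and 40.1, 38.5 and 40.7 in knockdowns. The groups did not overlap and the log2 fold change was 0.41 ± 0.08 (SE; limma, adjusted p = 0.0013). LAMA4, the alpha chain of the laminins of vessels and mesenchyme, was read at 171, 193 and 183 RPM in controls and 193, 176 and 189 in knockdowns. Its groups overlapped, with an interval of -0.09 to 0.15 on the log2 fold change. LAMA2, the chain of muscle laminin whose loss causes a congenital muscular dystrophy, was read at 38.9, 39.6 and 36.04 RPM in controls and 41.2, 39.4 and 37.9 in knockdowns, with an interval of -0.08 to 0.18. LAMA5, a broadly made basement membrane chain, varied widely between libraries of a group, at 104, 57.6 and 75.96 RPM in controls and 68.8, 98.1 and 83.4 in knockdowns. Control replicate 1 was the highest and control replicate 2 the lowest of the 6 libraries for LAMA5, and the interval on its log2 fold change was -0.29 to 0.50. Without control replicate 2 the LAMA5 value was -0.10 (limma, adjusted p = 0.568). LAMA5 shares 1.53% of its span with ADRM1 on the opposite strand, read at 90.9 RPM. LAMA3, the alpha chain of laminin-332, rested on 12 to 30 reads in each control library and 14 to 18 in each knockdown library, with an interval of -0.13 to 0.99.

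The nidogens went apart. NID2 (ENSG00000087303.12, chromosome 14, 52471521 to 52535712) was read at 279, 290.4 and 282 RPM in controls and 409, 417 and 420.2 in knockdowns. The groups were far apart and each was narrow. NID2 rose, and its log2 fold change was 0.55 ± 0.04 (SE; limma, adjusted p = 1.9e-06). NID1 was read at 172, 169 and 168 RPM in controls and 159, 160.3 and 163 in knockdowns. Knockdown values of NID1 were all a little under the controls, and the log2 fold change was -0.08 ± 0.04 (SE; limma, adjusted p = 0.136) with an interval of -0.16 to 0.01. Without the GC and length trend NID1 was called, at -0.10 (limma, adjusted p = 0.030).

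Of the 5 focal adhesion adaptors, PTK2 and FERMT2 rose, PXN fell, and TLN1 and ILK did not pass the threshold. PXN encodes paxillin, a scaffold of focal adhesions. PXN was read at 412, 408 and 411 RPM in controls and 306, 323 and 315 in knockdowns. Controls lay within 4 RPM of each other, and the log2 fold change was -0.38 ± 0.04 (SE; limma, adjusted p = 2.4e-05). FERMT2 encodes kindlin-2, an activator of integrins that binds the beta tail. FERMT2 was read at 103, 109.9 and 111 RPM in controls and 133, 137 and 134 in knockdowns, and its log2 fold change was 0.32 ± 0.04 (SE; limma, adjusted p = 2.3e-04); without the GC and length trend it was 0.17 (limma, adjusted p = 0.005). PTK2 encodes focal adhesion kinase. PTK2 was read at 105, 109 and 112 RPM in controls and 129, 119 and 119.8 in knockdowns. Its log2 fold change of 0.17 ± 0.05 (SE; limma, adjusted p = 0.013) became 0.04 (limma, adjusted p = 0.430) without the GC and length trend. TLN1, which encodes talin-1, the link between beta tails and actin, was read at 831, 878 and 833 RPM in controls and 783, 784 and 798 in knockdowns. All 3 knockdown libraries of TLN1 were under the controls, and the log2 fold change was -0.10 ± 0.04 (SE; limma, adjusted p = 0.057). TLN1 passed in 3 of 19 other fits. Among these were the fit without control replicate 1, at -0.12 (limma, adjusted p = 0.046), and voom, at -0.10 (limma, adjusted p = 0.043). Over the 19 fits its value ran from -0.12 to -0.04, and the highest limma adjusted p was 0.491.

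ILK, the integrin-linked kinase that acts as a scaffold at the beta tail, was listed at 1.26, 1.17 and 1.29 RPM in controls and 1.3, 1.32 and 0.748 in knockdowns. These values stand for few reads (35 to 65 reads in each control library and 21 to 31 in each knockdown library). ILK shares 64.1% of its span with TAF10 on the opposite strand, which was read at 36.3 RPM. The strand setting and the handling of overlapping genes are not stated, so the listed ILK value may not be the gene's level. No difference was detectable for it at this depth, with an interval of -0.70 to 0.34 on the log2 fold change.

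Levels were compared between genes as RPKM, which is RPM per kilobase of exon, with exon lengths from GENCODE 29. In controls ITGB1 led at 424 ± 38.5 RPKM (SD, n = 3), followed by ITGA2 at 173 ± 6.2. ITGA5 (119 ± 7.3) and LAMC1 (118 ± 2.8) came next and were within their spread of each other. LAMB1 (87.8 ± 1.6) followed, above ITGB5 (84.2 ± 1.1) by more than the SD of either, and TLN1 (84.1 ± 2.6) was level with ITGB5. In knockdowns ITGB1 (467 ± 4.9 RPKM) again led. LAMC1 (169 ± 2.7 RPKM) and ITGA2 (164 ± 8.5) were within their spread of each other. ITGA5 (149 ± 4.7) followed, above ITGB5 (142 ± 6.6) by more than the SD of either. ITGB8 and ITGA11, the largest changes, started low, at 1.65 ± 0.12 and 6.26 ± 0.23 RPKM in controls, and reached 5.87 ± 0.046 and 17.6 ± 0.77 in knockdowns.

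**Figure D3:**
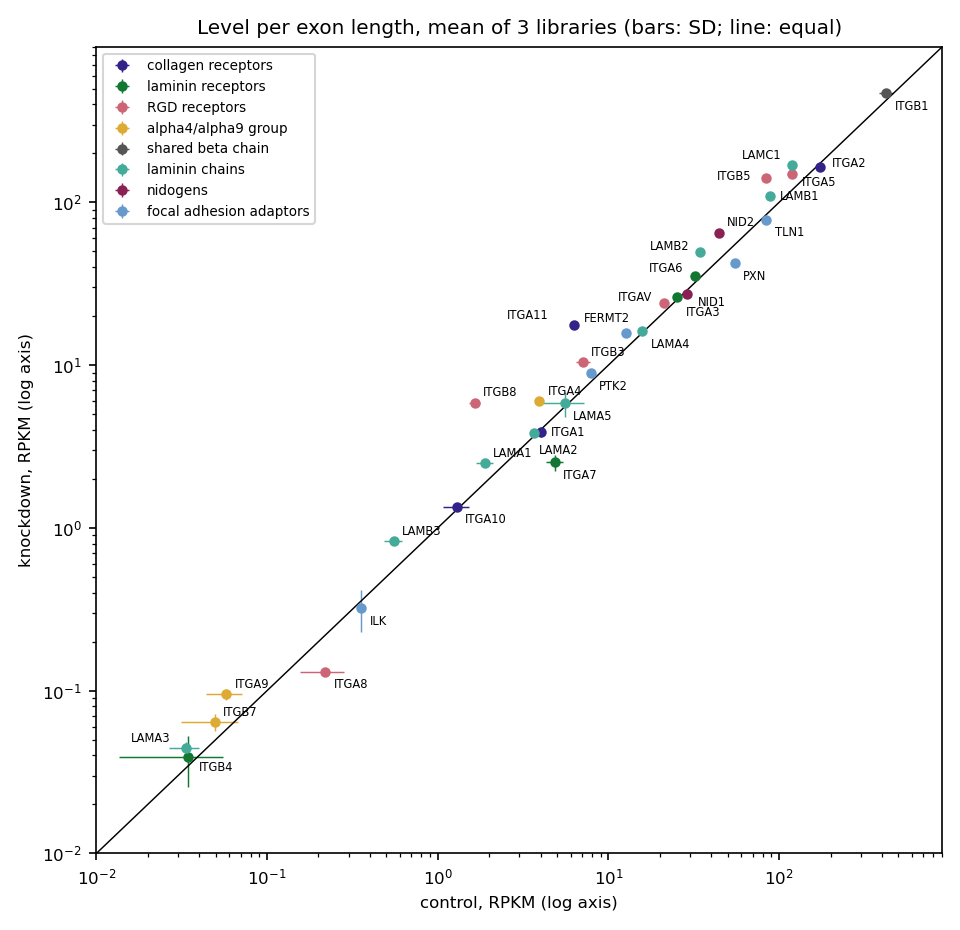
Mean level per exon length (RPKM, log axes) of the 34 genes in controls (horizontal) and knockdowns (vertical), n = 3 libraries each, with SD bars and the line of equal level. ITGB1 is at the top right, and ITGB8 and ITGA11 stand farthest above the line.

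The make-up of each chain family was set out as the share of its summed RPKM. ITGA2 held 44.2% ± 0.23 of the summed alpha chain level in controls and 38.1% ± 1.5 in knockdowns (SD, n = 3), and ITGA5 30.4% ± 0.88 and 34.7% ± 1.3. ITGA11 went from 1.603% ± 0.074 to 4.09% ± 0.24, and ITGA7 from 1.25% ± 0.18 to 0.587% ± 0.068. Among beta chains ITGB1 held 81.9% ± 1.5 in controls and 74.7% ± 1 in knockdowns, ITGB5 16.4% ± 1.5 and 22.6% ± 0.97, and ITGB8 0.322% ± 0.049 and 0.939% ± 0.0017. These 7 shares were chosen with the values known, and none of them overlapped between groups. Of all 26 chain shares computed, 15 did not overlap and 11 did, among them those of ITGA1, ITGA6, ITGA10, ITGAV, LAMA2 and LAMA5. Over all genes tested, the levels of 51.1% did not overlap. A share can drop because other chains rise: the level of ITGB1 was 424 ± 38.5 RPKM in controls and 467 ± 4.9 in knockdowns. Neither ITGB1 nor ITGA2 was called as changed. Among laminin alpha chains LAMA4 held 58.6% ± 4.5 and 56.9% ± 2.9, and the groups overlapped.

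Ratios within a library do not depend on how libraries are scaled, and 9 were set out between chains that pair or take the same place, chosen with the values known. The ratio of ITGA11 to ITGA2, on the RPKM scale, was 0.03802, 0.0356 and 0.0351 in controls and 0.0968, 0.116 and 0.1097 in knockdowns, or 2.97 times the control mean. That of ITGB8 to its partner ITGAV was 0.082, 0.0766 and 0.0756 in controls and 0.238, 0.238 and 0.258 in knockdowns, or 3.14 times. For ITGB5 to ITGAV the mean went from 3.99 ± 0.086 to 5.898 ± 0.38 (SD, n = 3), and for ITGB3 to ITGAV from 0.337 ± 0.041 to 0.435 ± 0.025. ITGA5 to ITGB1 went from 0.281 ± 0.011 to 0.319 ± 0.011. The laminin receptor ratio of ITGA7 to ITGA6 dropped from 0.152 ± 0.021 to 0.0719 ± 0.0098. LAMC1 to LAMA4 went from 7.52 ± 0.37 to 10.5 ± 0.37, LAMB2 to LAMB1 from 0.393 ± 0.012 to 0.453 ± 0.028, and NID2 to NID1 from 1.54 ± 0.045 to 2.37 ± 0.014. In all 9 the groups did not overlap, which follows in part from the choice of pairs, so the ratios are given as a description with no test.

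**Figure D4:**
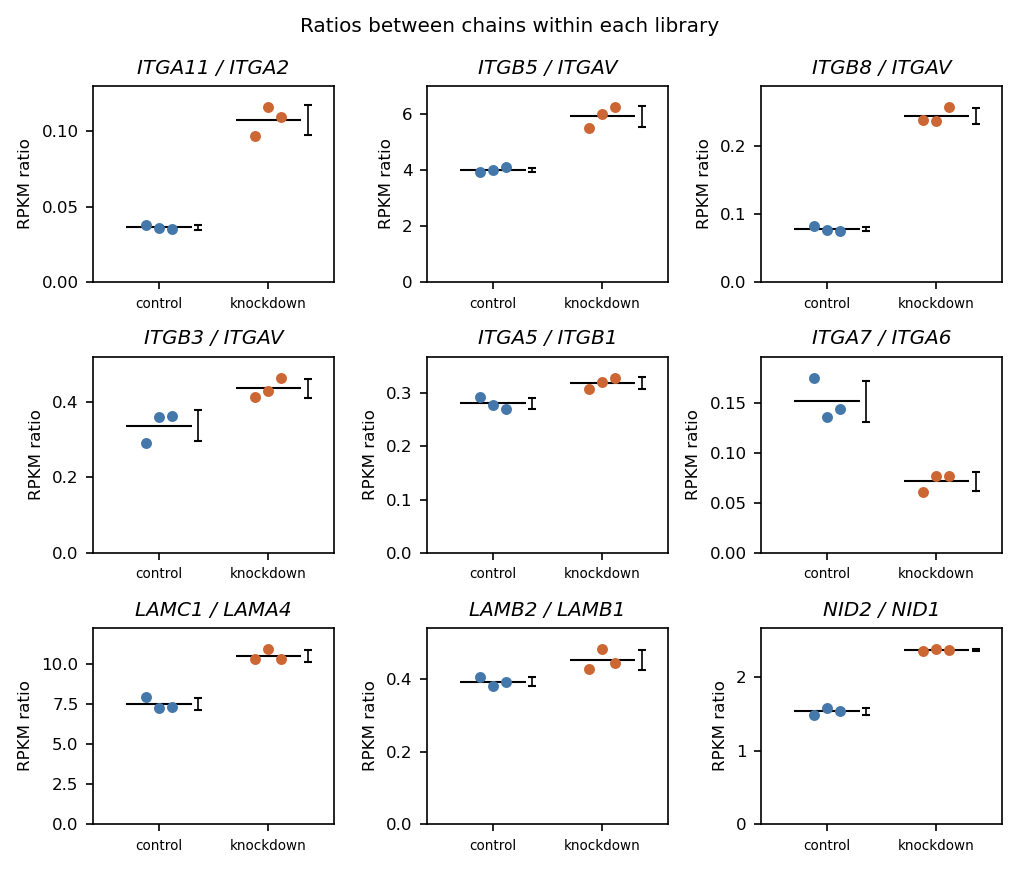
Ratio of the RPKM of 2 chains within each library (vertical axis, from 0), for 9 pairs in 3 control and 3 knockdown libraries; lines are means and bars the SD. ITGA11 to ITGA2 and ITGB8 to ITGAV are about 3 times the control value, and ITGA7 to ITGA6 is under the controls.

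The ligands of these receptors were followed in lists of 99 further pathway genes, of which 88 were tested, 33 were higher and 28 lower. The shares called in each list stand beside the 41.0% of all genes tested (17.5% higher and 23.5% lower) and the 48.6% of protein-coding genes. Of 17 tested genes in the list of fibronectin and RGD ligands (19 listed), 11 were higher and 2 lower, or 76.5% called. Their median log2 fold change was 0.26. The list is broader than its name, and also holds VCAM1, which ITGA4 binds. TGFB2, a TGF-beta isoform, went from 13.3 ± 0.31 to 29.6 ± 0.17 RPM (SD, n = 3), with 1.16 ± 0.06 (SE; limma, adjusted p = 2.1e-07) on the log2 scale. A place in this list does not show that a product carries the RGD motif or is bound through it. This holds for TGFB2 and for the other genes listed, and binding by these receptors was not examined. CTGF, a matricellular integrin ligand, went from 200.3 ± 11.9 to 315 ± 30.2 RPM with 0.65 ± 0.07 (SE; limma, adjusted p = 2.7e-05) on the log2 scale. POSTN (periostin) fell, and its log2 fold change was -0.39 ± 0.04 (SE; limma, adjusted p = 3.3e-05). SPP1 (osteopontin) was at -0.71, a call that ended with control replicate 2 (-0.48, limma adjusted p = 0.072), control replicate 3 or knockdown replicate 3 left out.

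Of 12 collagen ligands, all tested, 4 were higher and 3 lower, or 58.3% called. COL5A3 and COL5A2, chains of collagen V, rose by 1.79 ± 0.08 (SE; limma, adjusted p = 7.1e-08) and 0.73 ± 0.04 (SE; limma, adjusted p = 5.0e-07) on the log2 scale. COL1A1 and COL1A2, the chains of collagen I, fell, with log2 fold changes of -0.88 ± 0.06 (SE; limma, adjusted p = 2.0e-06) and -0.77 ± 0.04 (SE; limma, adjusted p = 3.8e-07). In the same libraries ITGA11, a receptor for collagen I, rose. Of 13 tested basement membrane partners (15 listed), 10 rose and 1 fell, or 84.6% called, and the median log2 fold change was 0.59. COL4A1 and COL4A2, the main collagen IV chains, went from 582 ± 30.96 to 1314 ± 50.98 RPM and from 587 ± 11 to 1345 ± 111 RPM (SD, n = 3), with log2 fold changes of 1.18 ± 0.05 (SE; limma, adjusted p = 7.1e-08) and 1.19 ± 0.06 (SE; limma, adjusted p = 1.5e-07). COL4A6, another collagen IV chain, was the one called lower, at -0.24 ± 0.07 (SE; limma, adjusted p = 0.019). That call was lost without control replicate 1, knockdown replicate 1 or knockdown replicate 3, and without control replicate 1 COL4A6 was at -0.18 (limma, adjusted p = 0.062).

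The other adhesion adaptors were the pathway list with most falls: 17 of 30 were lower and 5 higher, or 73.3% called, with a median log2 fold change of -0.26. VCL, which encodes the talin-binding protein vinculin, fell from 700.4 ± 22.7 to 455 ± 25.9 RPM (SD, n = 3), with -0.62 ± 0.05 (SE; limma, adjusted p = 3.9e-06) on the log2 scale. GIT1, a scaffold that binds paxillin, fell by 0.75 on the log2 scale (SE 0.05; limma adjusted p = 1.7e-06). TES, which encodes the focal adhesion protein testin, rose, with 0.54 ± 0.05 (SE; limma, adjusted p = 1.1e-05). PTK2B, a kinase related to focal adhesion kinase, was at 0.56 ± 0.20 (SE; limma, adjusted p = 0.041), a call lost in 9 of 18 other fits. The fits that lost it included all those with a library left out except knockdown replicate 3, and without knockdown replicate 2 PTK2B was at 0.46 (limma, adjusted p = 0.129).

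Among other integrin and laminin chains, ITGAX, a leukocyte chain, rested on 26 to 37 reads in each control library and 9 to 12 in each knockdown library and was at -0.86 ± 0.26 (SE; limma, adjusted p = 0.021); that call ended with control replicate 2 (-0.79, limma adjusted p = 0.071), control replicate 3 or knockdown replicate 3 left out. With an offset of 5 reads ITGAX was at -0.56 (limma, adjusted p = 0.054). ITGAE and LAMB4 did not pass the threshold, at 0.18 ± 0.09 (SE; limma, adjusted p = 0.122) and -0.69 ± 0.33 (SE; limma, adjusted p = 0.118). ITGB6, the epithelial beta chain that shares latent TGF-beta as a ligand with ITGB8, was not tested, with 1 to 7 reads in each control library and 0 to 1 in each knockdown library.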

How the data were processed

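RNA of 6 libraries, 3 per group, was measured by polyA sequencing, 50 bp single-end per the labels' protocols. The authors deposited log2 values; the offset and library size were found from the values, and undoing an offset of 0.5 reads gave whole reads for 100% of values (tolerance 0.001 reads). Bowtie2, featureCounts and hg19 are named in the submitters' processing notes, without role or version; the strand setting is not given in the sources used here, so genes that overlap another are uncertain. Columns were matched to samples by the siRNA and the replicate in their names; knockdown column names have an ending not explained in the labels. Limma 3.58.1 (R 4.3.3: lmFit, eBayes with trend, two-sided) was run on the deposited log2 values of 19048 genes with a mean of at least 10 normalized reads, with group as the only term and Benjamini-Hochberg adjustment over all of them. Fold changes therefore understate those of genes with few reads. Exon lengths came from GENCODE 29 and apply to another build than the table's coordinates; none were converted. The fit was tested on simulated data. Between replicates, chi-square divided by its degrees of freedom was 2.87 to 11.0, and no library was a copy of another. Other offsets, filters, scalings, variance models, thinning, a GC and length correction, a replicate block and leaving out each library were tried. The name sin-lncRNA was found in RefSeq as RIPOR3-AS1. The 34 genes, their classes and the pathway lists were chosen with earlier results of these data known. Named were every one of the 34 genes, with per-library values for those called with a log2 fold change of 0.5 or more in size, and per pathway list the 2 largest rises and 2 largest falls called, except 1 gene that is not reported here. ITGAE, LAMB4, ITGB6, CD47, CD151, CSPG4 and SDC1 fall outside this rule and were named after their values were seen.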

Additional observations from a re-analysis of the deposited data

How the results depend on the processing

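With a log2 fold change of at least 0.5 required, 12 of the 32 tested genes of the set and 29 of the 88 tested pathway genes were called, against 20 and 61, by construction. A stricter p threshold would first drop ITGA6, ITGA9, ITGA8 and PTK2 from the set (limma, adjusted p = 0.049, 0.038, 0.032 and 0.013). In the other fits 17 to 21 genes of the set and 46 to 65 pathway genes were called; with a library left out the ranges were 17 to 20 and 53 to 62. Of the 20 called genes of the set, 15 kept direction and call in every other fit, and ITGA6, ITGA8, ITGAV, ITGA9 and PTK2 lost the call in at least 1. ITGA1, ITGA2, ITGB1, NID1 and TLN1 gained one in at least 1. Directions turned for 7 genes that were not called: ITGA1 (0.0033 thinned to the smallest total), ITGA2 (0.035 under quantile normalization), LAMA2 (-0.054) and LAMA4 (-0.081) without the GC and length trend, and others with a library left out. With a library left out the log2 fold changes ran from -0.086 to 0.013 for ITGA1, from -0.029 to 0.21 for ITGA10, from -0.012 to 0.073 for LAMA4, from -0.10 to 0.32 for LAMA5 and from -0.32 to 0.090 for ILK. The cause was not tested. Between libraries of equal replicate number, deviations from group means correlated at -0.15, -0.18 and 0.07. Between those of unequal number the correlations ran from -0.08 to 0.20. With 3 libraries per group these values cannot decide whether equal numbers mark pairs. A fit with replicate as a block called 17 genes of the set and 54 pathway genes, but not ITGA6, ITGA9 or PTK2. Depth limits ITGA8, ITGA9, LAMA3, ILK, ITGB4 and ITGB7.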

Other observations

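Matrix receptors other than integrins were listed as well, and 6 of the 12 tested changed, 2 upward and 4 downward, with a median log2 fold change of -0.02. That share is near the 41.0% of all genes tested and the 48.6% of protein-coding genes that were called. SDC2, which encodes the proteoglycan co-receptor syndecan-2, rose from 33.2 ± 4.1 to 66.8 ± 2.3 RPM (SD, n = 3), and the log2 fold change was 1.02 ± 0.08 (SE; limma, adjusted p = 3.8e-06). DDR2, a collagen receptor kinase of fibroblasts, rose, at 0.25 ± 0.04 (SE; limma, adjusted p = 0.0012), or 0.11 (limma, adjusted p = 0.016) without the GC and length trend. CD44, the hyaluronan receptor, fell from 1399 ± 33.9 to 647 ± 28.3 RPM, with -1.11 ± 0.04 (SE; limma, adjusted p = 5.6e-08) on the log2 scale. DAG1, which encodes the laminin receptor dystroglycan, fell, at -0.48 ± 0.06 (SE; limma, adjusted p = 6.7e-05). CSPG4 and SDC1 were the other falls, at -0.42 and -0.27. CD47 and CD151, membrane proteins that associate with integrins, did not pass the threshold, with intervals of -0.10 to 0.09 and -0.24 to -0.01.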
